A study of Mus musculus with 4 samples.

Results

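Integrins, selectin ligands and their counter-receptors hold leukocytes to vessel walls, to stroma and to each other. The 10 genes described here were chosen by name as integrin chains and leukocyte adhesion molecules: Itga4, Itgb1, Itgb7, Itgal, Itgb2, Itga6, Cd44, Vcam1, Icam1 and Selplg. The choice was made with earlier results of these data known, so counts of them set beside all genes are no test. All 10 were measured among 19297 genes, each by 1 probe set that the platform table pairs with that gene alone. Total RNA was profiled on Affymetrix whole-transcript arrays from the spleens of 4 mice of strain 129Sv, 1 array per mouse. Both groups were homozygous for RBP-J flox. The 2 wild type mice were Ren1d+/+, female and aged 80 and 81 days, and their spleens weighed 0.12 g and 0.16 g. The 2 mice with B cell leukaemia were Ren1dcre/cre, so that cre stands at both copies of the renin gene Ren1d. Leukaemic replicate 1 was a female of 107 days with a spleen of 0.7 g, and leukaemic replicate 2 a male of 93 days with a spleen of 0.47 g. Cre at Ren1d acts in cells that have expressed renin, while the arrays read whole spleen. The genotype, age and spleen weight cannot be told apart from the disease, and the only male was leukaemic. Rbpj, the floxed gene, read 9.99 and 9.74 in the wild type mice, against 9.78 and 9.18 in the leukaemic mice (difference -0.38, SE 0.22, limma adjusted p = 0.41), but these values do not check the genotype, because whether the probe set covers the deleted part was not analysed here.

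An integrin is a pair of an alpha and a beta chain, so a cell displays a receptor only when it makes both chains. Alpha 4 pairs with beta 1 to form VLA-4, which binds VCAM-1 and fibronectin, or with beta 7 to form the receptor of the gut addressin MAdCAM-1. Alpha L and beta 2 form LFA-1, which binds ICAM-1. Precursor B cells are held in the bone marrow by VLA-4 on stromal VCAM-1, and mature lymphocytes use LFA-1 to stop in vessels and to touch antigen-presenting cells.

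Across the 10 genes the beta 7 chain, both chains of LFA-1 and the counter-receptors ICAM-1 and VCAM-1 had the lowest values relative to wild type, while the alpha 4, alpha 6 and beta 1 chains lay close to wild type. Only Itgb7 passed the test, limma with Benjamini-Hochberg adjustment over all genes at 0.05. That is 1 of 10 lower and 0 higher, where 1.03% of all genes were called lower and 1.43% higher, 2.46% in either direction. At an unadjusted p under 0.05, 5 of the 10 were lower and 0 higher, against 10.6% and 10% of all genes. In 8 of the 10 both leukaemic arrays read below both wild type arrays, against 26.2% of all genes, and in 0 both read above, against 23%. The fitted difference was below 0 in 9 of the 10, against 56.1% of all genes. The median difference, leukaemic minus wild type, was -0.36 (log2) for the 10 genes and -0.03 for all genes. Values are the authors' deposited log2 values, and differences are given with the standard error (SE) of the moderated fit. Its p-values rest on each gene's spread between mice, drawn by limma toward the spread typical of all genes. That common spread weighs more than a gene's own, with 4.83 prior against 2 residual degrees of freedom. In 2 against 2 mice the smallest exact permutation p is 0.333 (two-sided), so no gene can pass such a test singly.

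**Figure D1:**
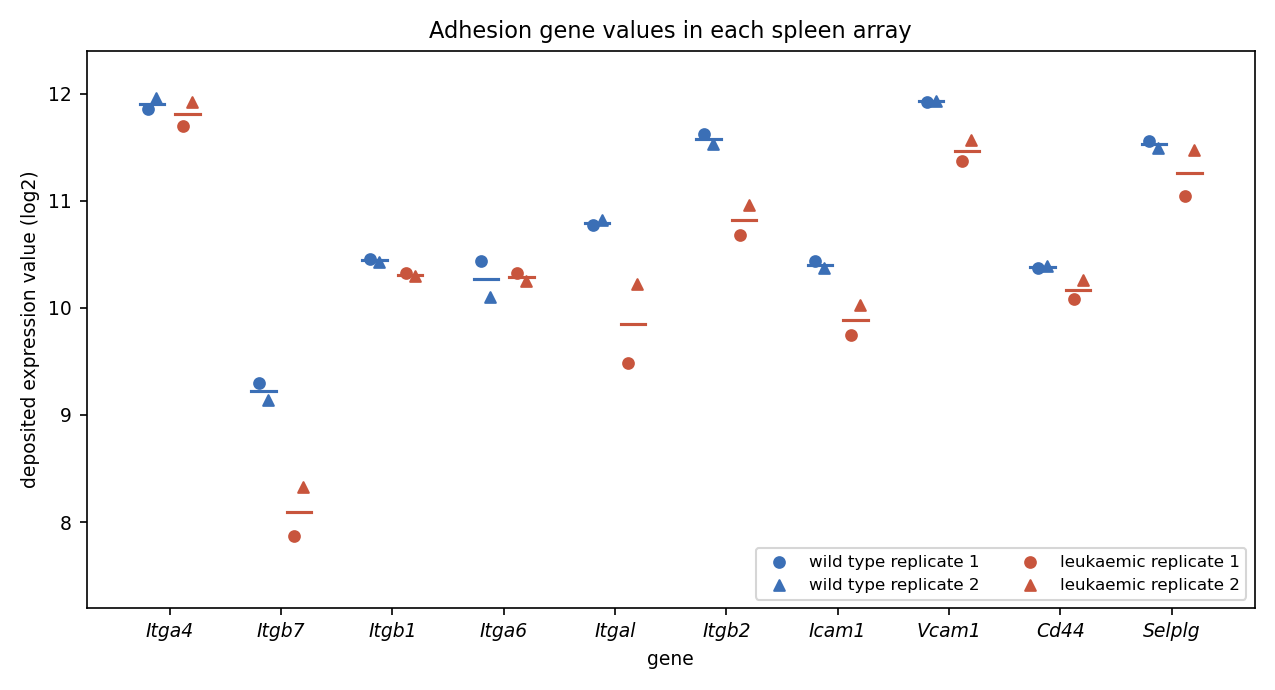
Deposited log2 expression value (vertical axis) of the 10 adhesion genes in each of the 4 spleen arrays, with wild type in blue, leukaemic in red, and a bar at the mean of 2 mice. The arrays overlap between groups for Itga4 and Itga6, and Itgb7 has the widest gap between groups, 0.82.

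Itgb7 encodes the beta 7 chain, which pairs with alpha 4 and with alpha E on lymphocytes. It read 9.30 and 9.14 in wild type replicates 1 and 2, against 7.87 and 8.33 in the leukaemic ones. Both leukaemic spleens were thus below both wild type spleens. The mean fell from 9.22 ± 0.11 to 8.10 ± 0.32 (SD, n = 2), a difference of -1.12 (SE 0.19, limma adjusted p = 0.0366) or 2.18-fold on the scale of the deposited values. Detection calls were not analysed here, so whether the leukaemic values stand above background is not shown. The call was lost after quantile normalization (-1.12, adjusted p = 0.0565) and against a minimum change of 1.2-fold (adjusted p = 0.0947). Over the alternatives that keep every mouse and use no block, the limma adjusted p of Itgb7 ranged from 0.015 to 0.0947. With the replicate number as a block it was 0.00107, but replicate numbers do not pair the mice. The call was also lost without wild type replicate 1 (-1.04), wild type replicate 2 (-1.20) or leukaemic replicate 1 (-0.90). Without leukaemic replicate 2 the difference was -1.35.

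Itga4, the alpha chain that beta 7 and beta 1 share, read 11.85 and 11.96 in the wild type mice, against 11.69 and 11.93 in the leukaemic mice. The groups overlapped, and leukaemic replicate 2 lay between the wild type mice. Its difference of -0.10 (SE 0.15, limma adjusted p = 0.827) has a 95% interval from -0.45 to 0.26. That interval does not overlap with the one of Itgb7, -1.57 to -0.68, but the difference between the 2 genes was not tested. Without leukaemic replicate 1 the sign of Itga4 turned (0.02).

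The upstream sequences of this pair are shown because 1 chain of this receptor was called and the other was not. That of Icam1 is shown because, of the 5 members with a listed sequence, it alone holds the motif GGNNNTTCC at 2 places. Each is the 250 bases before a transcript start, from RefSeq on GRCm38.p6, read 5′ to 3′ on the strand of the gene. Itgb7 lies at chr15:102231936-102232185 (minus strand), inside the annotated span of the gene; Itga4 at chr2:79255176-79255425 (plus strand); and Icam1 at chr9:21015690-21015939 (plus strand). Capitals mark matches on either strand to GAGGAA, the core bound by the ETS factor PU.1, to TGTGGT, the core of RUNX factors, or to GGNNNTTCC, a pattern of NF-κB sites.
Itgb7: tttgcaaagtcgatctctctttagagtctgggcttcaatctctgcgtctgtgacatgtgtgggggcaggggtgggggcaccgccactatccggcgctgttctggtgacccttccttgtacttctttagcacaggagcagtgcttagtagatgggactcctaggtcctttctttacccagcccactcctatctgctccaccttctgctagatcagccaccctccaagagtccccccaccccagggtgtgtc
Itga4: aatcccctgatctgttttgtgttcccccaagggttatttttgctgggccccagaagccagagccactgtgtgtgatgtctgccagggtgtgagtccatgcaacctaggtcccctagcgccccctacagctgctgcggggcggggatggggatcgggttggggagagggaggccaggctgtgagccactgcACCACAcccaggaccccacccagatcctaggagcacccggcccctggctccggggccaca
Icam1: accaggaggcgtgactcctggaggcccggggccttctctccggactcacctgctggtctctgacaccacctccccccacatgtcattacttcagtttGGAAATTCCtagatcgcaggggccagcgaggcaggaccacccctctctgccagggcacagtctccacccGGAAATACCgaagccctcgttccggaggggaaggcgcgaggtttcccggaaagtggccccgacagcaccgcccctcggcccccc

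Among 32851 upstream sequences of the same length in that table, 23.3% held GAGGAA, 14% TGTGGT and 15.7% GGNNNTTCC, each at least once. The window of Itgb7, which may not lie at the start used in spleen, held none of the 3 motifs, and that of Itga4 held TGTGGT once, on the opposite strand, 60 to 55 bases before the start. The window of Icam1 held GGNNNTTCC at 2 places that do not overlap. One, GGAAATTCC, reads the same on both strands and lies 153 to 145 bases before the start, and the other, on the opposite strand, lies 84 to 76 bases before it. Sequences of 5 of the 10 members were matched by symbol. The other windows matched were those of Itgb1, with 1 GAGGAA and 1 GGNNNTTCC, and Cd44, with 2 GAGGAA. A match is a run of letters and does not show binding of a factor.

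Itgb1 encodes beta 1, the partner of alpha 4 in VLA-4 and of alpha 6 in a laminin receptor. It read 10.46 and 10.43 in the wild type mice, against 10.32 and 10.29 in the leukaemic mice. The mice of each group lay within 0.03 of each other and the groups did not overlap, yet the distance between them was small. The difference of -0.13 (SE 0.13, limma adjusted p = 0.683) had a 95% interval from -0.45 to 0.18, which leaves out a fall of the size fitted for Itgb7.

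Itga6, the alpha chain of laminin receptors with beta 1 or beta 4, read 10.44 and 10.10 in the wild type mice, against 10.32 and 10.25 in the leukaemic mice. Both leukaemic spleens lay between the wild type mice, which differed by 0.34. The difference was 0.02 (SE 0.16, limma adjusted p = 0.982; 95% interval -0.37 to 0.40), and its sign turned after quantile normalization (-0.06), without wild type replicate 2 (-0.15) and without leukaemic replicate 1 (-0.02). No direction can be given for this gene.

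The LFA-1 chains had the largest differences after Itgb7. Itgal, the alpha L chain found on nearly all leukocytes, read 10.77 and 10.82 in the wild type mice, against 9.48 and 10.22 in the leukaemic mice. The wild type mice were within 0.04 of each other, and leukaemic replicate 1 lay 0.74 below leukaemic replicate 2. The difference of -0.94 (SE 0.24, 95% interval -1.51 to -0.37) did not pass (limma adjusted p = 0.0867). Without leukaemic replicate 2 it was -1.31, and without leukaemic replicate 1 it was -0.58. Over the alternatives that keep every mouse and use no block, the limma adjusted p of Itgal lay between 0.0635 and 0.273. With the replicate number as a block it was 0.00519, but replicate numbers do not pair the mice.

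Itgb2 encodes beta 2, which pairs with alpha L, alpha M, alpha X and alpha D and is the common chain of these leukocyte integrins. It read 11.62 and 11.53 in the wild type mice, against 10.68 and 10.96 in the leukaemic mice. All arrays of leukaemic spleen were lower, with a gap of 0.57 between the groups. The difference of -0.76 (SE 0.16, 95% interval -1.13 to -0.39) missed the threshold (limma adjusted p = 0.0588). It was called with an intensity trend and robust prior (adjusted p = 0.0257). Over the alternatives that keep every mouse and use no block, the limma adjusted p of Itgb2 ranged from 0.0257 to 0.217. With the replicate number as a block it was 0.0165, but replicate numbers do not pair the mice. Without leukaemic replicate 2 the difference was -0.90.

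The other partner chains of beta 2 and beta 7, taken by partnership and outside the naming rule, had values below wild type as well. Itgax, the alpha X chain that marks dendritic cells and some macrophages, read 9.45 and 9.03 in the wild type mice, against 8.36 and 8.16 in the leukaemic mice. Its fall of -0.98 (SE 0.18) passed narrowly (limma adjusted p = 0.0491) and was called in 5 of 12 alternatives. Itgam, alpha M of neutrophils and monocytes, differed by -0.94 (SE 0.31, limma adjusted p = 0.151), with leukaemic replicate 1 at 8.06 and leukaemic replicate 2 at 9.09 against 9.45 and 9.59 in wild type. Itgad, the alpha D chain, differed by -0.68 (SE 0.16, limma adjusted p = 0.0741). Itgae, the alpha E partner of beta 7, differed by -0.57 (SE 0.22, limma adjusted p = 0.204).

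Icam1 encodes the main ligand of LFA-1, present on endothelium, antigen-presenting cells and lymphocytes. It read 10.44 and 10.37 in the wild type mice, against 9.75 and 10.03 in the leukaemic mice. The groups did not overlap, and leukaemic replicate 1 was again the lowest array. The difference of -0.51 (SE 0.15, 95% interval -0.88 to -0.15) did not pass (limma adjusted p = 0.128).

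Vcam1, the ligand of VLA-4 on stroma, endothelium and splenic red pulp macrophages, read 11.92 and 11.93 in the wild type mice, against 11.37 and 11.56 in the leukaemic mice. The wild type mice were 0.01 apart and the groups did not overlap. The difference was -0.46 (SE 0.14, limma adjusted p = 0.137; 95% interval -0.80 to -0.12). Vcam1 and Icam1 were called in 0 of 12 alternatives each, with values below 0 in all 12.

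Cd44, the receptor of the matrix sugar hyaluronan, read 10.37 and 10.39 in the wild type mice, against 10.08 and 10.26 in the leukaemic mice. The leukaemic arrays were lower in both cases, by 0.30 and 0.12 relative to the wild type mean. That difference of -0.21 (SE 0.14, limma adjusted p = 0.490; 95% interval -0.55 to 0.12) did not pass.

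Selplg encodes PSGL-1, the mucin by which leukocytes roll on P-selectin. It read 11.56 and 11.49 in the wild type mice, against 11.05 and 11.47 in the leukaemic mice. Leukaemic replicate 2 was only 0.02 below the lower wild type mouse, so most of the distance lay in leukaemic replicate 1. The difference of -0.27 (SE 0.18, 95% interval -0.69 to 0.16) did not pass (limma adjusted p = 0.491) and shrank to -0.05 without leukaemic replicate 1.

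**Figure D2:**
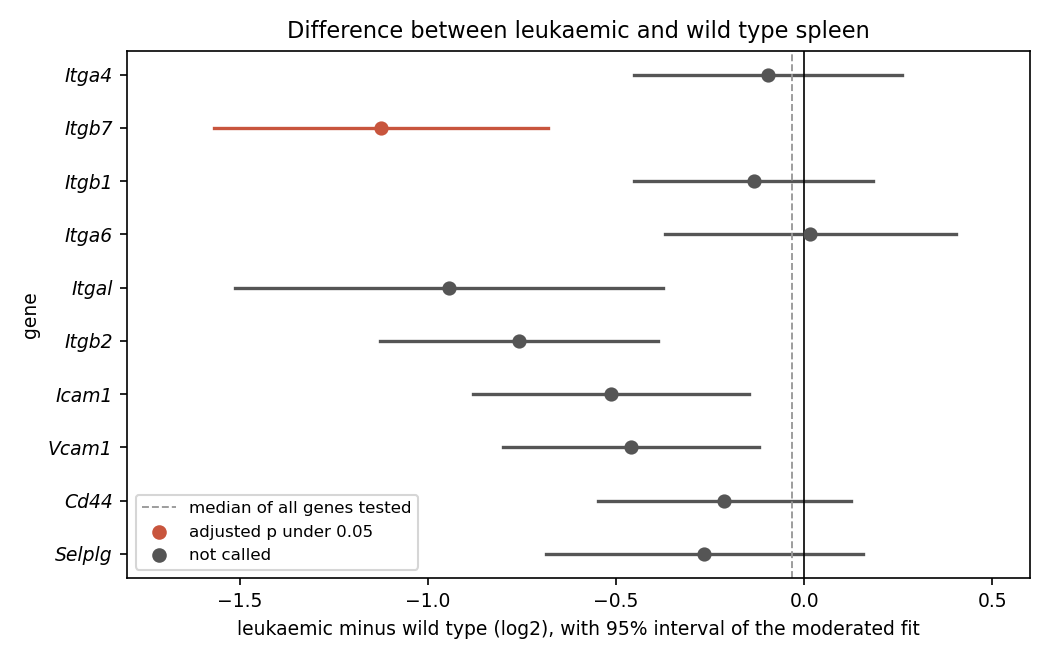
Difference between leukaemic and wild type spleen (log2, horizontal axis) for each of the 10 genes, with points for the fitted value and lines for its 95% interval. Itgb7, at -1.12, is the gene in red that passed the test, and the intervals of Itgal, Itgb2, Icam1 and Vcam1 also lie below 0 although their adjusted p did not pass.

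The leukaemic mice differed in how far the genes lay from wild type. These mice also differed in sex, age and spleen weight, which cannot be told apart here. In 8 of the 10 genes leukaemic replicate 1 read below leukaemic replicate 2, against 44.3% of all genes, and the exceptions were Itgb1 and Itga6. Averaged over the 10 genes, leukaemic replicate 1 was 0.58 below the wild type mean (-0.58) and leukaemic replicate 2 0.32 below it (-0.32). The mean of 4 marker lists of other spleen cells was also lower in leukaemic replicate 1. The calls in these lists stand beside 1.03% of all genes called lower. T cell markers averaged 10.47 and 10.06 in the wild type mice, against 8.40 and 9.16 in leukaemic replicates 1 and 2, and 5 of 9 measured were called lower. Neutrophil markers averaged 10.95 and 10.91 against 9.22 and 10.20, with 2 of 8 called lower. NK cell markers averaged 8.09 and 7.69 against 6.53 and 7.0, with 3 of 8 called lower. In that list Klrb1c (0.29) and Gzmb (0.28) read higher in both leukaemic arrays, without a call. Klrb1c read only 4.92 to 5.43, where array medians lay between 7.96 and 8.03, so whether it stands above background is not shown. Mature B cell markers averaged 11.65 and 11.33 against 10.15 and 10.69, with 3 of 7 called lower. T cells, NK cells, neutrophils and mature B cells carry LFA-1, and lymphocytes among them beta 7. Their part in the differences of Itgal, Itgb2 and Itgb7 was not tested. In whole spleen, fewer cells of a type and less RNA per cell cannot be told apart.

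In the other marker lists the leukaemic mice stood closer to each other, with dendritic cell, macrophage and platelet markers slightly lower in leukaemic replicate 1 and the erythroid and endothelial ones lower in leukaemic replicate 2. Over all genes, 1.03% were called lower and 1.43% higher, and 10.6% were lower at an unadjusted p under 0.05. Dendritic cell markers stood at -1.09 and -0.99 relative to the wild type mean in leukaemic replicates 1 and 2. In that list 5 of 8 were called lower, 1 of them Itgax itself. Macrophage and monocyte markers, a list that holds Vcam1 itself, stood at -0.52 and -0.51 with 0 of 10 called by limma and 7 lower at an unadjusted p under 0.05. Megakaryocyte and platelet markers stood at -0.74 and -0.66 with 1 of 4 called lower, and erythroid markers at -0.40 and -0.63 with 0 of 4 called by limma and 3 lower at an unadjusted p under 0.05. Endothelium and stroma markers, which stand for cells that display VCAM-1 and ICAM-1, were at -0.15 and -0.23. Of 13 measured, 1 was called lower, Ccl19 (-1.19), and Madcam1 had the next lowest difference (-0.93). At an unadjusted p under 0.05 by limma, 3 were lower and 1 higher, Tek (0.59), against 10.6% and 10% of all genes. The median difference of this list was -0.04, against -0.03 over all genes, and 8 of 13 values lay below 0. That list also holds Madcam1 and Pecam1, which are in the related adhesion lists. Precursor B cell markers went the other way, at 2.27 and 2.51 with 7 of 11 called higher. The part of these cells in the values of Vcam1, Icam1 and the integrin chains was not tested. An array reads no true 0, so none of these markers can be called absent.

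**Figure D3:**
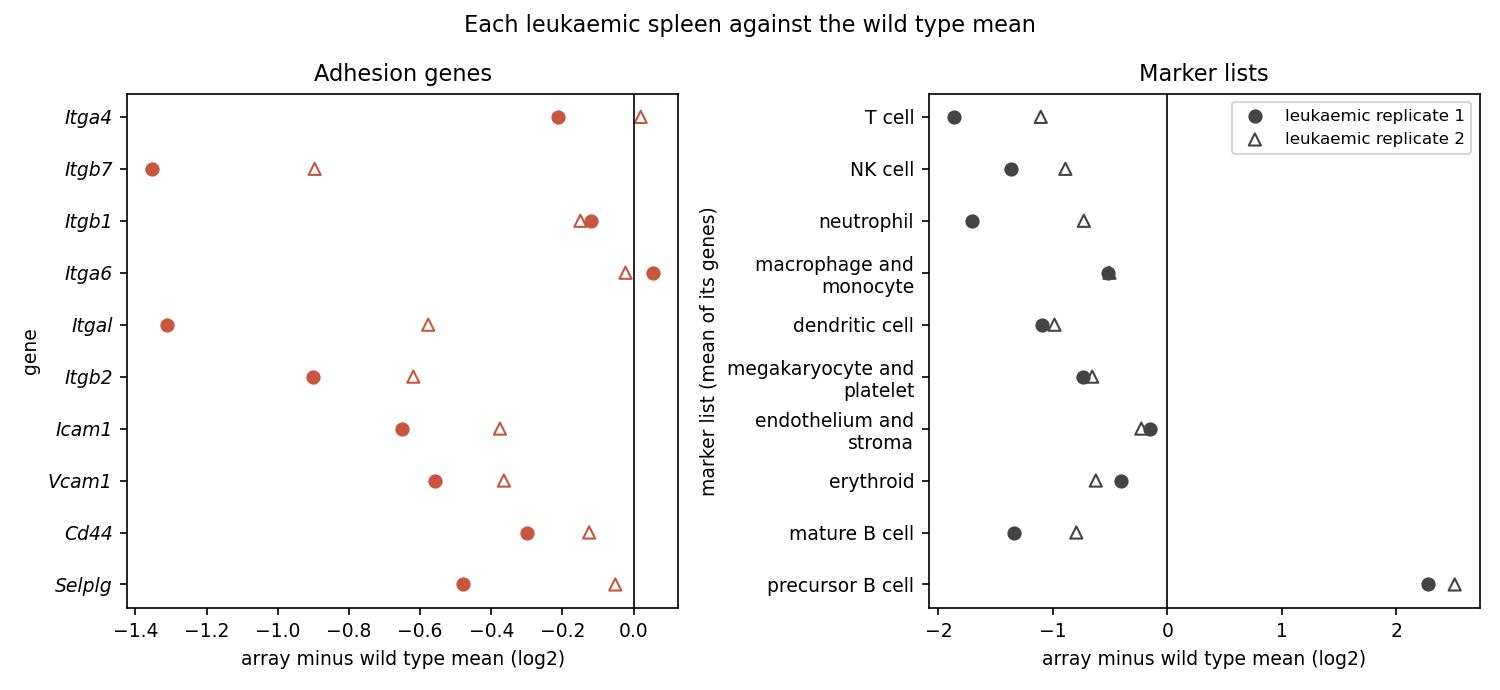
Value of each leukaemic array minus the wild type mean (log2, horizontal axes) for the 10 adhesion genes (left) and for the mean of each marker list (right), with filled circles for leukaemic replicate 1 and open triangles for leukaemic replicate 2. Leukaemic replicate 1 lies further from wild type for Itgb7, Itgal and Itgb2 and for T cell and neutrophil markers, while precursor B cell markers are higher in both mice.

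Among the other integrin chains, 1 of 21 measured was called lower, Itgax, and 0 higher, against 1.03% and 1.43% of all genes. The median difference was -0.46, against -0.03 over all genes, 19 of 21 values lay below 0, and 13 were lower at an unadjusted p under 0.05 against 10.6% of all genes. Chains of platelets, stroma and myeloid cells are among them, and the part of the cell types whose markers are given above was not tested.

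Genes that regulate integrin activation from inside the cell had 2 of 19 measured called lower and 0 higher, against 1.03% and 1.43% of all genes. Their median was -0.28 against -0.03 over all genes. At an unadjusted p under 0.05, 8 were lower and 1 higher, against 10.6% and 10% of all genes. The higher one, Rasgrp2, differed by 0.42 (SE 0.13, limma adjusted p = 0.142). Fyb, the adaptor ADAP of T cells and platelets, read 11.08 and 10.85 in the wild type mice, against 9.87 and 10.08 in the leukaemic mice, a fall of -0.99 (SE 0.16, limma adjusted p = 0.0340). Skap1, its partner in T cells, read 9.16 and 9.0 against 8.30 and 8.10, a fall of -0.88 (SE 0.15, limma adjusted p = 0.0395). Both were called in 8 of 12 alternatives. The T cell and the platelet markers were lower, as given above, and their part in these values was not tested. Leukaemic replicate 1 had the lower Fyb and leukaemic replicate 2 the lower Skap1, and with 2 mice this order cannot be read further.

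Of 17 measured immunoglobulin and junctional adhesion molecules 1 was called lower and 0 higher, against 1.03% and 1.43% of all genes. Their median was -0.17 against -0.03 over all genes. The called gene, Cd226, a receptor of T and NK cells for nectin-like ligands, read 9.11 and 8.85 in the wild type mice, against 7.23 and 7.96 in the leukaemic mice. Its fall of -1.39 (SE 0.25, limma adjusted p = 0.0441) was called in 7 of 12 alternatives and ranged from -1.75 to -1.02 without 1 mouse. T and NK cell markers were lower, as given above, and their part in the value of Cd226 was not tested.

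Selectins and their carriers had 0 of 7 measured genes called, with 1 lower and 1 higher at an unadjusted p under 0.05 (10.6% and 10% of all genes) and a median of 0.02 against -0.03 over all genes. The gene of smallest p, Madcam1, the ligand of alpha 4 beta 7 that the spleen makes in the lining of its marginal sinus, read 8.61 and 8.22 in the wild type mice, against 7.37 and 7.60 in the leukaemic mice. Its difference of -0.93 (SE 0.18) just missed the threshold (limma adjusted p = 0.0525). Podxl, a CD34-like mucin, read 8.09 and 7.95 against 8.37 and 8.97 (difference 0.65, SE 0.21, limma adjusted p = 0.151).

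Enzymes that build selectin ligands on carriers such as PSGL-1 had 0 of 10 genes called, with 4 lower and 0 higher at an unadjusted p under 0.05 (10.6% and 10% of all genes), and a median of -0.17 against -0.03 over all genes. Gcnt1, which makes the branch that carries the selectin ligand, differed by -0.62 (SE 0.15, limma adjusted p = 0.0789). Fut4, a fucosyltransferase, differed by -0.55 (SE 0.14, limma adjusted p = 0.0869).

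A list of matrix ligands of these receptors, hyaluronan synthases and the hyaluronan receptor Hmmr had 1 of 15 measured genes called higher and 0 lower. Over all genes 1.43% were called higher and 1.03% lower. The median of the list was -0.10 against -0.03 over all genes. Lamc1, the gamma 1 chain of most laminins, which alpha 6 beta 1 binds, read 8.64 and 8.58 in the wild type mice, against 9.57 and 9.68 in the leukaemic mice. It rose by 1.02 (SE 0.14, limma adjusted p = 0.0245), or 2.02-fold, and was called in 9 of 12 alternatives. Its arrays stood 0.92 apart between groups, in the direction opposite to that of Itgb7. The other laminin chains of the list, given outside the naming rule, were not called. Lamb1 (-0.24), Lamb2 (-0.28), Lama2 (-0.08), Lama3 (-0.28) and Lama5 (-0.14) lay below 0, and Lama1 (0.06) and Lama4 (0.16) above it. Hmmr differed by 0.81 (SE 0.15) and just missed the threshold (limma adjusted p = 0.0502).

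**Figure D4:**
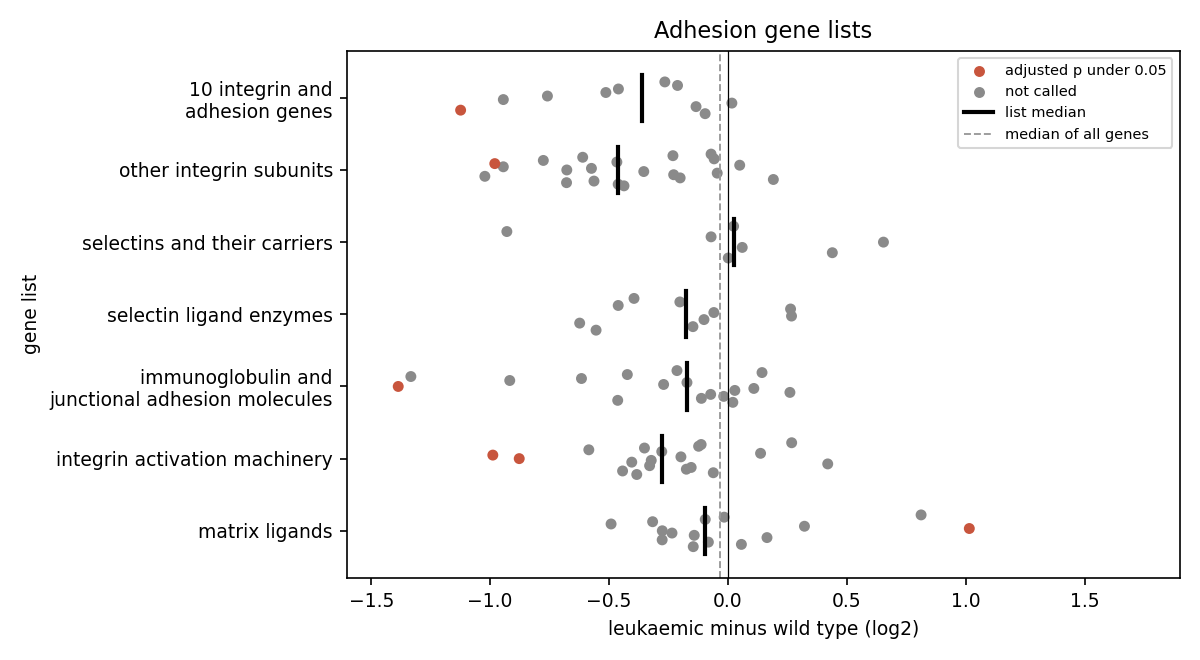
Difference between leukaemic and wild type spleen (log2, horizontal axis) for each measured gene of the 10 adhesion genes and of 6 related lists, with red points for genes whose adjusted p passed 0.05 and a black bar at the list median. The medians of the 10 genes (-0.36) and of the other integrin subunits (-0.46) lie below the dashed median of all genes (-0.03), and Lamc1 is the red point above 0.

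Over all genes, 276 were called higher and 199 lower, or 350 and 147 after centring each array on its median. Array medians lay between 7.96 and 8.03. Wild type replicate 2 also held RNA of exocrine pancreas, whose 8 measured markers averaged 11.90 there against 6.70 to 6.81 in the other arrays, with 0 called by limma and 0 at an unadjusted p under 0.05. The 10 adhesion genes differed between the wild type mice by at most 0.34 (Itga6), and their values without that mouse are among the fits that leave out 1 mouse. The number of arrays limits the precision of every value given.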

How the data were processed

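The values are the authors' deposited log2 signals of each probe set on each array. The submitters' processing notes name RMA, R 2.15.0 and limma 3.12.1; for their settings and for scan batches, nothing is given in the sources used here. RMA equalises array distributions, so differences are relative to the other genes. Of 23309 probe sets, 20729 had 1 symbol, 1174 several and 1406 none. Genes with several (804 of 19297) were represented by the set of highest mean over the arrays. Samples were grouped by title.

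The comparison used lmFit and eBayes of limma 3.58.1 (R 4.3.3) without covariate or filter, and Benjamini-Hochberg adjustment over 19297 genes. Lists were described by counts and medians, with no set test. The members and lists were chosen with earlier results of these data known. Text named all members and, per related list, up to 3 called genes in each direction, or the 2 of smallest p; marker genes that the rule also named are given as list means. In data simulated for this comparison over 19297 genes, the scripts recovered 0%, 14%, 63.3% and 88% of changes of 0.5, 1, 2 and 3 (log2), with 1 false call among 83. Protein sequences were not used here. Summaries used Python 3.11.15 with pandas 2.3.3. Alternatives are given in the closing section.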

Additional observations from a re-analysis of the deposited data

How the results depend on the processing

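Against 475 genes called in all, 1 of 10 members and 5 genes of the related lists, quantile normalization called 261, 0 and 3, an intensity trend with a robust prior 965, 2 and 11, and a minimum of 1.2-fold 123, 0 and 0. At an unadjusted p under 0.05, limma had 5 members after quantile normalization, and 3 members and 20 genes of the related lists against 1.2-fold. The mean of all probe sets called 8 genes of the related lists and all probe sets in the fit 3. Leaving out each mouse in turn gave 0 to 1043 genes in all, 0 to 3 members and 0 to 7 genes of the related lists. Leaving out wild type replicate 1, limma called 38, 0 and 0 (4500, 3 and 31 at an unadjusted p under 0.05), and leaving out wild type replicate 2 it called 0, 0 and 0 (3141, 4 and 26). Leaving out leukaemic replicate 1 gave 491, 0 and 6 (1877, 2 and 16), and leaving out leukaemic replicate 2 gave 1043, 3 and 7. These fits have 1 residual degree of freedom and leave 1 mouse in a group. Without either leukaemic mouse, limma used 1 common spread for all genes, drawn from the wild type pair. The calls of those fits thus hold no spread between leukaemic mice and none of a single gene. The difference of Itgb7 (log2) lost its call after quantile normalization (-1.12) and against 1.2-fold (-1.12), and over the fits without 1 mouse it ranged from -1.35 to -0.90. Itgb2 gained one with the intensity trend (-0.76), and ranged from -0.90 to -0.62; Itgal ranged from -1.31 to -0.58. The sign of Itga6 turned after quantile normalization (-0.0573), and it ranged from -0.15 to 0.18 without 1 mouse; Itga4 ranged from -0.212 to 0.0201. The other 5 members (Itgb1, Cd44, Vcam1, Icam1 and Selplg) had values below 0 and no call in all 12 alternatives. The cause of these changes was not tested.

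Replicate numbers do not pair the mice: same-numbered deviations from the group mean correlated at -0.09 across genes. With the replicate number as a block, 1693 genes were called in all, 3 members and 16 genes of the related lists, with Itgal at -0.94 (adjusted p = 0.00519) and Itgb2 at -0.76 (adjusted p = 0.0165).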

Other observations

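The platform table pairs 2 further probe sets with both Fyb and Phb, a pair of unrelated genes, and these were not used for Fyb. They read 10.24 and 10.57 in wild type replicate 1, 9.71 and 10.31 in wild type replicate 2, 10.78 and 10.94 in leukaemic replicate 1, and 10.60 and 10.89 in leukaemic replicate 2. Their differences of 0.71 and 0.48 (log2; limma adjusted p = 0.127 and 0.153 over all probe sets) have the sign opposite to that of the probe set that names Fyb alone.

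Another 2 probe sets are paired with both Itgam and Rpl35, a ribosomal protein gene. Their differences were 0.05 and 0.00 (log2), beside -0.94 for the probe set that names Itgam alone.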
